A study of Mus musculus with 8 samples.

Results

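The mRNAs of the Myc network were followed in mouse RAW264.7 cells over a 120 min course of lipopolysaccharide (LPS), the endotoxin of Gram-negative bacteria. The 8 members, Myc, Max, Mxd1, Mxd3, Mxd4, Mxi1, Mnt and Mlx, were taken by gene symbol from a table of 23143 genes, and all 8 had a row. The rows were taken by symbol and not by their values, but the members were chosen with earlier results of these data known. RAW264.7 is a macrophage-like line derived from a tumour induced by Abelson murine leukaemia virus, so the cells proliferate in culture, unlike most macrophages in tissue. There were 8 libraries: 1 from untreated cells (0 min) and 7 from cells given 100 ng/ml LPS for 15, 30, 45, 60, 75, 90 or 120 min. The labels give the RNA fraction as cytoplasmic and the molecule as total RNA, and the study describes isolation of total RNA, so which of them was sequenced is not settled here. Since each time was sampled by 1 library, differences over time have no check against replicates. The intervals below (95%, exact) cover counting error only, and the test used compares libraries, not conditions.

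Myc is a transcription factor that binds DNA only as a dimer with Max, and the pair activates genes of growth and biosynthesis through a short DNA element called the E-box. Mxd1, Mxd3, Mxd4, Mxi1 and Mnt also dimerise with Max, occupy the same element and recruit Sin3 corepressors, and so act as antagonists of Myc. Mlx is a Max-like partner that binds some of the antagonists and the glucose-sensing Mondo proteins. The mRNA of Myc is short-lived and is a classical early product of growth factor and cytokine stimulation.

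Library totals ranged from 100250892 reads at 75 min to 159077286 at 120 min. Ribosomal precursor RNA (Rn45s) took 8.18 to 9.11% of reads at 0, 30, 60 and 120 min and 13.0 to 20.5% at 15, 45, 75 and 90 min, so the libraries fell into 2 sets that alternate in time. Comparisons over time below use normalised read counts, which are counts divided by a median-of-ratios size factor that a single abundant RNA does not move. Of the 8 macrophage markers listed, 7 had a row in the table, and each had at least 8387 reads at 0 min (Emr1, the F4/80 antigen). The 8 markers of other cell types had mean normalised counts below 10, and 4 of them (Ncr1, Epcam, Krt18 and Col1a1) were at 0 in every library.

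The E-box of the Myc–Max dimer, CACGTG, was searched in the promoters of the members, because several network genes carry the element their own products bind. The RefSeq promoters (GRCm38.p6) reach from 250 bases before to 50 bases after an annotated transcript start. For Max, Mlx and Mnt that start is not the outer end of the gene as positioned further below. The Mlx window, chr11:101087040-101087339, lies inside the gene. The motif reads the same on both strands. Promoters of 7 members were searched, and 4 of the 7 held the motif, against 8.09% of 27025 genes with a promoter. The 60 bases around each match follow, 5′ to 3′ on the gene's strand, with the E-box in capitals. They lie at chr12:76962219-76962278 (minus strand) for Max, chr11:101087223-101087282 (plus) for Mlx, chr11:74830774-74830833 (plus) for Mnt and chr5:34187897-34187956 (minus) for Mxd4.
Max: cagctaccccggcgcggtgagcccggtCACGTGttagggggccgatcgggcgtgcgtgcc
Mlx: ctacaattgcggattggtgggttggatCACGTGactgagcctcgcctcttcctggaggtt
Mnt: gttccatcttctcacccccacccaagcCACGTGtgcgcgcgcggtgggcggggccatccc
Mxd4: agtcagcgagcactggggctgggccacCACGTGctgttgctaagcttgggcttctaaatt
Counted from the transcript start on which each window is built, the match began at position -3 in Max, -40 in Mlx, -123 in Mnt and -219 in Mxd4. The windows of Mxd1 and Mxd3 and the 3 windows of Mxi1 did not hold these letters. A match is a description of sequence and says nothing of binding in these cells. The 4 genes with a match include 1 that was lower at 120 min (Mxd4) and 3 that were not called against 0 min (Max, Mlx and Mnt), as described below.

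Myc rose steeply and at each of the 7 steps from one time point to the next. In order of time, from 0 to 120 min, its normalised read counts in the 8 libraries were 287, 361, 653, 1612, 3086, 5405, 6768 and 7443. No stimulated library was as low as the untreated one, and the steps were largest, as a ratio, between 15 and 75 min. A gene was called changed between a pair of libraries when the log2 ratio passed 0.5 in size and the unadjusted p of an exact negative binomial test was under 0.05. Against 0 min, Myc was not called at 15 min (1.26-fold, 1.08 to 1.46) and was called higher in the other 6 contrasts. With Benjamini-Hochberg adjustment over all genes the call at 30 min was lost and the 5 from 45 min on were kept.

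Myc was 2.28 times its 0 min value (2.00 to 2.60) at 30 min and 10.8 times (9.62 to 12.1) at 60 min. By 120 min it was 26.0 times that value (23.3 to 29.1), a log2 ratio of 4.70. The increases from 75 to 90 min, from 75 to 120 min (1.38-fold, 1.33 to 1.43) and from 90 to 120 min were not called. Of the 28 pairs of libraries, 24 were called for Myc, each with the later library higher. Among the 10494 genes with a mean normalised count of at least 100, the Myc ratio ranked 85 at 30 min, 28 at 75 min and 38 at 120 min. Myc rose within both sets of libraries, from 0 through 30 and 60 to 120 min and from 15 through 45 and 75 to 90 min, so the rise was present at low and at high Rn45s share.

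**Figure D1:**
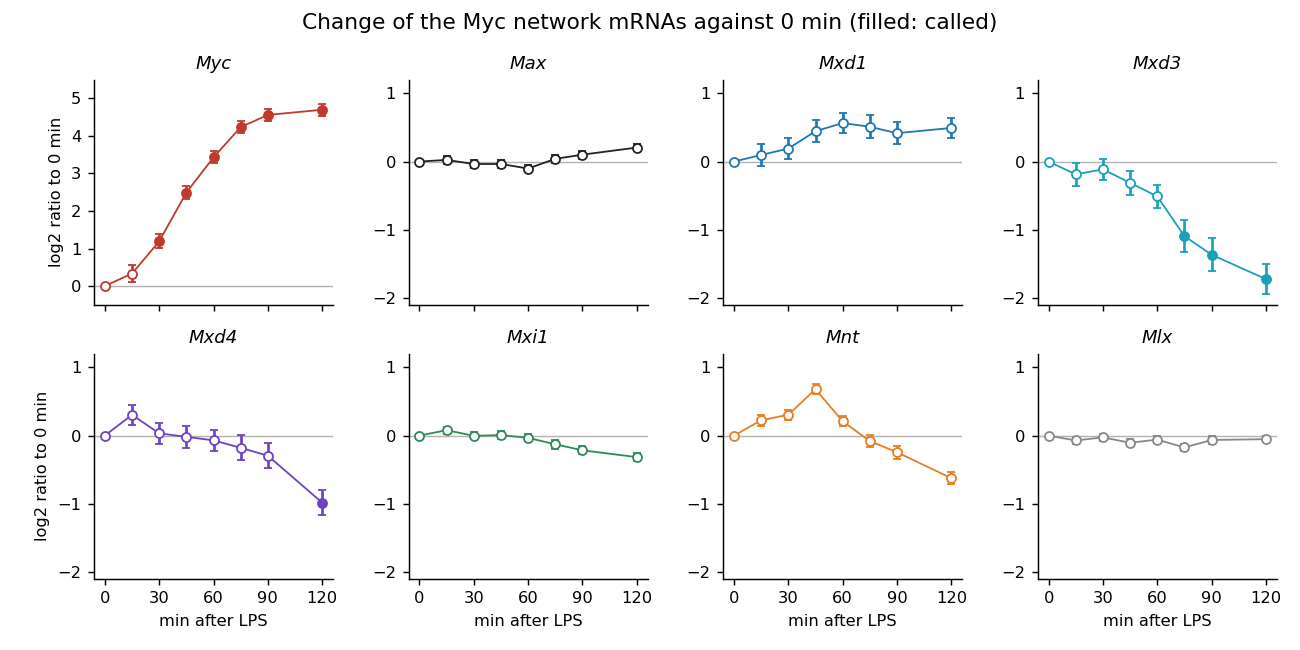
Normalised read count of each member relative to 0 min (log2 axis) against time after LPS in min, 1 library per point, with 95% counting intervals. Myc climbs to 26.0 times its 0 min value, Mxd3 and Mxd4 end at 0.303 and 0.506, Mnt peaks at 45 min, and Max and Mlx stay near 1.

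Myc (chr15:61985341-61990361, plus strand, GRCm38) has 2 AUUUA pentamers in its 3′ untranslated region, the core of the AU-rich elements that many short-lived mRNAs carry. They are shown because Myc has the highest density of this pentamer among the members. The sites below are 25 bases each, in DNA letters 5′ to 3′ with the pentamer in capitals, at chr15:61990137-61990161 and chr15:61990274-61990298.
Myc site 1: acagatttgtATTTAattgtttttt
Myc site 2: aattttttttATTTAaagacatttt
The 2 pentamers lie in 442 bases, a density of 4.53 per kb, above that of 91.7% of 11301 genes with a mean normalised count of at least 10. At least 1 pentamer was present in 67.3% of those genes, whose median density was 1.25 per kb. Mxi1 had 5 in 1557 bases (3.21 per kb), and Max, Mxd1, Mnt and Mlx had 1 to 5 each. Mxd3, with 615 bases, and Mxd4, with 3105 bases, had 0. Neither RNA stability nor the use of these sites was measured.

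Mxd3 (chr13:55325170-55329900), an antagonist known for its expression in dividing cells, fell late in the course. In order of time its normalised read counts were 586, 515, 541, 472, 411, 275, 227 and 177. Values at 75 to 120 min lay below every earlier value. Against 0 min the ratio was 0.702 at 60 min, which was not called, 0.469 (0.398 to 0.550) at 75 min and 0.303 (0.259 to 0.353) at 120 min, both called lower. The call at 75 min was lost with edgeR's trended dispersion and with Benjamini-Hochberg adjustment, and those at 90 and 120 min were not. Mxd3 read counts at the last 3 time points were 179 to 219, the fewest of any member.

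Mxd4 (chr5:34176580-34187710), an antagonist found mainly in resting and differentiated cells, was lowest at 120 min. From 0 to 120 min its normalised read counts were 607, 750, 622, 600, 579, 537, 495 and 307. The value at 120 min lay apart below the other 7, and that at 15 min above them. The ratio to 0 min was 1.23 (1.11 to 1.37) at 15 min, not called, and 0.506 (0.445 to 0.574) at 120 min, called lower with a log2 ratio of -0.98. That call rests on the 120 min library alone, and it was lost with edgeR's trended dispersion, with Benjamini-Hochberg adjustment over all genes and with a log2 limit of 1.

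Mnt (chr11:74830806-74845725), the most widely expressed of the antagonists, rose and then fell. Its normalised read counts, in order of time, were 2297, 2683, 2840, 3679, 2656, 2171, 1939 and 1490. The 45 min value stood above all the others and the 120 min value below them. Neither was called against 0 min, with ratios of 1.60 (1.52 to 1.69) at 45 min and 0.649 (0.611 to 0.688) at 120 min, but the fall from 45 to 120 min was called (0.405, 0.382 to 0.429), where 6.09% of genes tested were called lower.

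Of the 28 pairs, 6 were called for Mnt, each a fall. The 45 min value was called higher than 0 min when only genes with a mean normalised count of at least 10 were fitted, and when the 120 min library was left out. The 45 min library has an Rn45s share of 16.6%. In the 0, 30, 60 and 120 min libraries alone Mnt was highest at 30 min (1.24-fold), and the part of the Rn45s share in the 45 min value was not tested. With libraries scaled to total counts, or to total counts without Rn45s, Mnt was called lower than 0 min at 120 min, with log2 ratios of -0.83 and -0.82 in place of -0.62.

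The other 4 members were not called in any contrast with 0 min. Mxd1 (chr6:86647044-86669234), an antagonist induced in many cells as they differentiate, had 552 normalised reads at 0 min and 590 to 816 afterwards. Every stimulated library lay above the untreated one, with ratios of 1.48 (1.34 to 1.64) at 60 min and 1.41 (1.27 to 1.56) at 120 min. Mxd1 was the only antagonist whose value at 120 min was above its value at 0 min.

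Mxi1 (chr19:53310128-53373293), another antagonist of the Mxd family, moved from 5047 normalised reads at 0 min to 4055 at 120 min, its lowest value, a ratio of 0.803 (0.774 to 0.834). Max (chr12:76937269-76962323), the shared partner, stayed between 4662 at 60 min and 5771 at 120 min. Its highest value was 1.24 times its lowest. Mlx (chr11:101086707-101092207) varied least, with a highest value 1.13 times its lowest and ratios to 0 min between 0.886 (75 min) and 0.982 (30 min).

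At 120 min a member needed a ratio of at least 1.61 to 1.66, depending on its count, to be called higher, or of at most 0.60 to 0.62 to be called lower. The values of Mxd1, Mxi1, Max and Mlx lie inside these limits, so a smaller change in them was not detectable as a call from single libraries.

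Counted over the network, 1 of 8 members was called higher in each contrast from 30 to 120 min, Myc each time. The share of all genes tested that was called higher was 1.14, 3.80, 3.43, 4.77, 5.79 and 7.63% in those 6 contrasts. Lower calls were 0 of 8 at 30, 45 and 60 min, against 0.202, 1.50 and 2.36% of genes. They were 1 of 8 at 75 and 90 min (Mxd3), against 3.48% and 4.42%, and 2 of 8 at 120 min (Mxd3 and Mxd4), against 6.70%. All members had a mean normalised count above 100, and among the 10494 such genes 9.27% were called higher and 8.52% lower at 120 min. A list of 8 is too short for these counts to be read further against such shares. At 15 min 0 of 8 members were called, where 0.295% of genes were called higher and 0.164% lower. The median log2 ratio of the 8 members at 120 min was -0.18, and that of the same 10494 genes was -0.0095.

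Genes were also grouped by when they first reached a called maximum or minimum, after the authors' rules. Myc, with its maximum at 120 min, was among the genes whose first extreme was a maximum at 60 min or later, which were 7.34% of the 16967 genes with a read. Mxd3 and Mxd4, with minima at 120 min, were among those whose first extreme was a minimum at 60 min or later, 7.26% of genes. The other 5 members had no called extreme, like 83.0% of genes. The 2 groups with a first extreme before 60 min and the opposite one from 60 min on held 0 members, and 0.807% (maximum first) and 0.566% (minimum first) of genes. A further 181 genes met none of these rules. Over any pair of libraries, 4 of 8 members were called (Myc, Mxd3, Mxd4 and Mnt), against 21.0% of genes. The shares in this paragraph are over all genes with a read, whatever their count. All members had a mean normalised count above 100, so these shares are not matched to them by count.

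**Figure D2:**
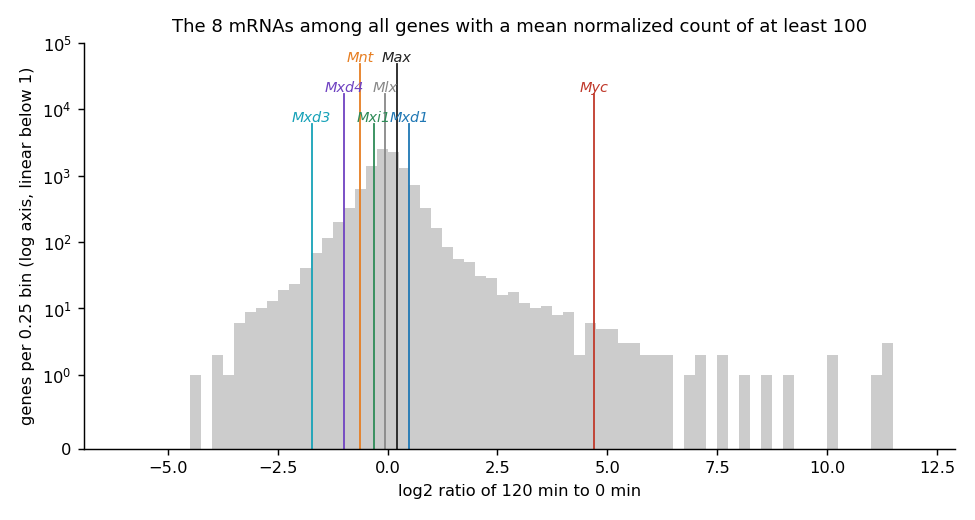
Number of genes against the log2 ratio of 120 min to 0 min for genes with a mean normalised count of at least 100, with the 8 members marked. Myc lies far in the upper tail at 4.70, Mxd3 and Mxd4 lie at -1.72 and -0.98, and the other 5 lie between -0.62 and 0.49.

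Levels were compared between members within each library as RPKM, the read count divided by the kb of unique sequence and scaled by the library total. In untreated cells Mlx was highest at 26.4 RPKM, followed by Max at 22.8 and Mxi1 at 14.7. Mnt at 4.52 and Mxd3 at 4.12 came next, and their intervals met. Mxd4 followed at 1.43. Myc at 1.09 and Mxd1 at 1.07 were lowest and were not separated by counting error.

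The order changed through Myc. It was 7th of 8 at 0 and 15 min, 6th at 30 min, 5th at 45 min (5.40 RPKM), 4th at 60 min (11.0) and 3rd at 75 min (16.4). At 90 min the values of Myc (21.6), Mlx (21.0) and Max (20.4) lay close, and the interval of Myc met that of Mlx. At 120 min Myc was highest at 24.7 (24.2 to 25.2), above Max at 22.9, which was not separated from Mlx at 22.1. Mxi1 at 10.3, Mnt at 2.55, Mxd1 at 1.31, Mxd3 at 1.08 and Mxd4 at 0.628 followed, with Mxd1 and Mxd3 not separated. Myc made up 1.44% of the summed RPKM of the network at 0 min and 28.9% at 120 min.

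**Figure D3:**
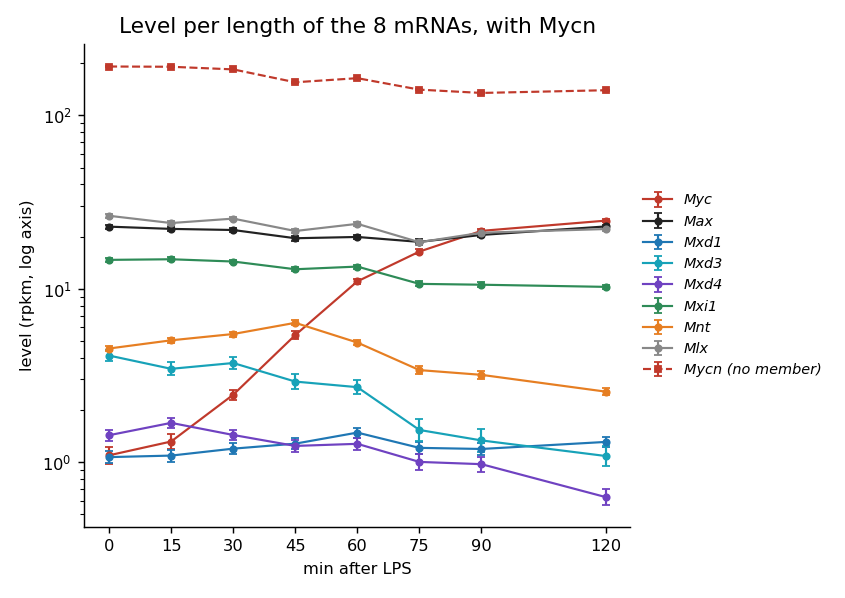
Level of each member, and of the paralog Mycn for comparison, in RPKM over unique sequence (log axis) against time after LPS in min, with 95% counting intervals. Myc passes the other members to 24.7 at 120 min, while Mycn lies above all of them throughout, at 191 in untreated cells and 140 at 120 min.

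Because Myc and its antagonists compete for Max, the ratio of Myc to the sum of the 5 antagonists was taken, both per kb. In order of time it was 0.0424 (0.0380 to 0.0473), 0.0504, 0.0934, 0.218, 0.464, 0.920, 1.25 and 1.56 (1.52 to 1.61). The ratio rose at every step and passed 1 between 75 and 90 min. Mga, another protein that pairs with Max, is not in this sum. At 90 min Mga was at 5.27 RPKM, Myc at 21.6 and the 5 antagonists together at 17.2. The time at which the ratio passes 1 therefore depends on which genes are summed. The change over the course was 36.8-fold, a log2 change of 5.20 (5.04 to 5.37). The log2 rise of Myc itself was 4.70 with size factors and 4.50 with libraries scaled to total counts. Its part in the change therefore depends on the library scale.

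Myc relative to Max went from 0.0479 to 1.08. The summed antagonists relative to Max started at 1.13, were highest at 45 min with 1.27, and ended at 0.692. Mxi1 was the most abundant antagonist in every library, with 56.9% of the antagonist sum at 0 min and 64.8% at 120 min. The share of Mxd3 went from 16.0% to 6.85% and that of Mxd1 from 4.14% to 8.26%. Mnt held 17.5% at 0 min, 25.7% at 45 min and 16.1% at 120 min. These are ratios of mRNA, and protein levels and dimers were not measured.

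**Figure D4:**
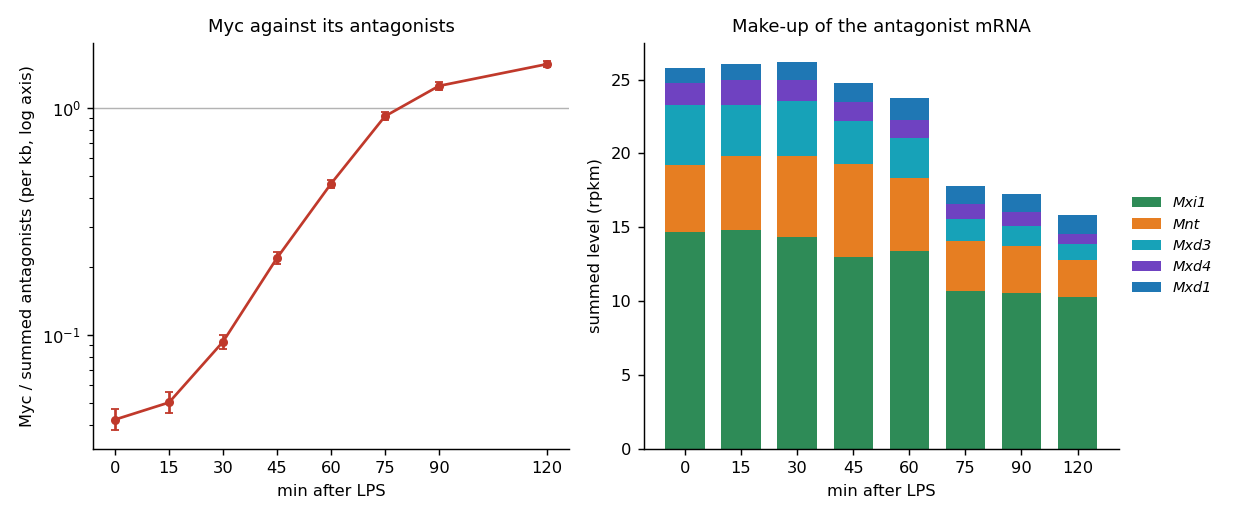
Left, ratio of Myc to its 5 antagonists per kb (log axis) against time after LPS in min, with 95% counting intervals and a line at 1, which the ratio passes between 75 and 90 min on its way from 0.0424 to 1.56. Right, stacked RPKM of the 5 antagonists in each library, with Mxi1 the widest part at 56.9% of the sum at 0 min and 64.8% at 120 min. Bar heights also move with the library total, of which Rn45s is only a part, and the shares within a bar do not. Against size factors, total counts shift log2 ratios at 120 min by -0.20, and total counts without Rn45s by -0.19.

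The wider network held a gene far more abundant than any member. Mycn (chr12:12936093-12941836), the paralog of Myc known from the nervous system and from tumours, had 65664 reads at 0 min and 58165 at 120 min, and all of its 58-base sequences were unique to it among the transcripts. Its level was 191 RPKM (190 to 193) at 0 min, 175 times that of Myc, and 140 RPKM at 120 min, 5.66 times that of Myc. Mycn was not called in any contrast with 0 min, with a ratio of 0.839 (0.830 to 0.849) at 120 min. With Mycn added to Myc, the ratio to the antagonists was 7.46 at 0 min and 10.4 at 120 min, a 1.39-fold change in place of 36.8-fold. This sum was chosen after the Mycn counts were seen.

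Of the other 5 genes of that wider list, Mga, a large protein that also pairs with Max, had a ratio of 1.56 (1.52 to 1.61) at 120 min. Mlxip, the Mondo partner of Mlx, had a ratio of 1.46 (1.39 to 1.53). Neither was called. Mycs was at 0 in all libraries, and Mycl1 was at 0 in all but the 120 min library, where it had 5 reads.

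Several cofactors and regulators of Myc rose. Of 27 in the table, 3 were called higher and 0 lower at 60 min, and 8 higher and 0 lower at 120 min, with a median log2 ratio of 0.28 at 120 min against -0.010 over genes with a mean normalised count of at least 10. Pim1, a kinase that acts with Myc, rose 31.7-fold (29.2 to 34.5) at 120 min, more than Myc. Usp36, a deubiquitinase that stabilises Myc, rose 1.65-fold. With libraries scaled to total counts, 1 of the 27 was called higher at 120 min in place of 8, so most of these calls hang on the scaling. With that scale 1 gene was called lower, and it was not among the 8.

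Among 36 genes known to be activated by Myc, mostly of ribosome production and metabolism, 3 were called higher and 0 lower at 60 min, and 6 higher and 1 lower at 120 min. Their median log2 ratio at 120 min was 0.33. Odc1, the first enzyme of polyamine synthesis, rose 5.03-fold (4.98 to 5.07), and the ribosome biogenesis genes Rrs1 and Nop58 rose 2.08-fold and 1.89-fold. Ldha, a glycolytic enzyme, had a ratio of 0.897 and was not called. Tert, the catalytic subunit of telomerase, fell to 0.247 (0.180 to 0.335), from 207 reads to 54. With libraries scaled to total counts, 2 were called higher and 1 lower at 120 min.

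Of 9 genes known to be repressed by Myc, 6 had a mean normalised count of at least 10. Cdkn2b and Gas1 were at 0 in every library, and Thbs1 had at most 2 reads in any library. Of the 9, 2 were called higher and 1 lower at 60 min. At 120 min 3 were called higher and 2 lower, the same counts with every library scale tried. With Benjamini-Hochberg adjustment, with a log2 limit of 1, or with the 0, 30, 60 and 120 min libraries alone, 3 were called higher and 1 lower. Gadd45a, a stress gene, rose 27.8-fold (19.8 to 40.1) from 35 reads, and Cdkn1a, the cyclin-dependent kinase inhibitor p21, rose 5.22-fold. Cdkn1b, the related inhibitor p27, fell to 0.438 and Cebpa, a myeloid transcription factor, to 0.594. The background for these lists is that given above: 3.43% of genes called higher and 2.36% lower at 60 min, and 7.63% and 6.70% at 120 min.

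Among 6 other E-box factors of the same bHLH-zipper class, 0 were called at 60 min and 2 at 120 min, both lower. Of genes with a mean normalised count of at least 10, 8.57% were called lower at 120 min. Usf1 fell to 0.347 (0.330 to 0.366) and Tfeb, a regulator of lysosomal genes, to 0.245 (0.228 to 0.263). Their relatives Tfe3 and Mitf had ratios of 1.40 and 1.41 and were not called.

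**Figure D5:**
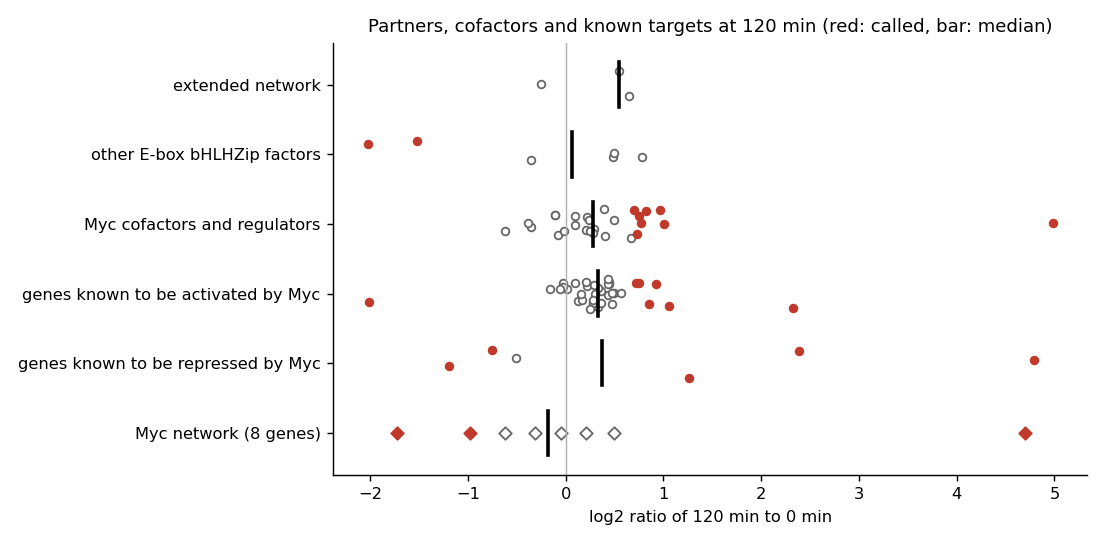
Log2 ratio of 120 min to 0 min for the genes of each Myc-related list with a mean normalised count of at least 10, and for the 8 members, with 1 point per gene, called genes in red and a bar at each median. Pim1, Gadd45a and Odc1 lie highest in their lists at 4.99, 4.80 and 2.33, and Tfeb and Tert lie at -2.03 and -2.02.

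The genes with a time course most like that of a member were found by Pearson correlation of log2(normalised count + 1) over the 8 libraries, among genes with a mean of at least 100. For Myc they were Ets2 (r = 0.998), Etf1, Plek, Dmtf1 and Ddx3y, and 622 of 10494 genes were above 0.95. Correlation ignores the size of a change: Ets2 rose 10.3-fold at 120 min and Etf1 1.84-fold, against 26.0-fold for Myc. For Mxd3, the antagonist that changed most, they were Cdkn2d (r = 0.999), Tfb1m, Pdlim2, Fam86 and Rmnd5b, with 744 genes above 0.95. Cdkn2d, a cyclin-dependent kinase inhibitor, had a ratio of 0.367 at 120 min. The points share 8 libraries and their scaling, so these are descriptions of a shared course.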

How the data were processed

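The authors sequenced ribosome-depleted RNA of RAW264.7 cells in 8 libraries and deposited raw read counts per gene symbol. Per their methods, 58-base reads were aligned with Bowtie (version not given in the sources used here) to RefSeq transcripts of mm10 with at most 2 mismatches, and reads matching more than 1 symbol were discarded. The submitters' processing notes name CASAVA 1.8.2 and DESeq 1.10.1. Median-of-ratios size factors and a blind parametric dispersion (0.0287 + 0.853/mean) were computed in Python 3.11.15 with scipy 1.17.1 from the counts of all 23143 genes, since single libraries give no replicate spread. Pairs of libraries were compared by an exact negative binomial test, and calls needed an absolute log2 ratio above 0.5 and an unadjusted p below 0.05. The scripts were tested on simulated data. Ratio intervals are exact conditional binomial and RPKM intervals exact Poisson, both at 95% and for counting error only, and RPKM used unique 58-base sequences per gene and total counts. Alternatives were other library scales, dispersion by edgeR 4.0.16 (R 4.3.3), adjustment, filters and leaving out each library. Named genes were all members, the 5 genes most like Myc and Mxd3, and per list up to 2 highest and 2 lowest ratios at 60 and 120 min among genes with a mean of at least 100; other list genes named were chosen after their values were seen. One gene that the rule names is not reported here. The members and gene lists were chosen with earlier results of these data known.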

Additional observations from a re-analysis of the deposited data

How the results depend on the processing

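The limits are those of 1 library per time point: no biological spread, counting error only, and 1 scale for all genes. No paired analysis was possible because each time point has 1 library and the labels give no replicate numbers. Of 242 member log2 ratios at 60 and 120 min under the alternatives, 235 kept their direction and side of the call, 3 lost the call, 3 gained it and 1 turned. Settings that change only the dispersion, the adjustment, the limit or the genes fitted leave the ratios as they were, so only a call could differ. Leaving out a library that is not compared alters a ratio only through the size factors. The count of 235 is therefore no measure of how stable the directions are. The 3 lost were Mxd4 at 120 min and the 3 gained were Mnt at 120 min, with -0.83 for total counts, -0.82 for total counts without Rn45s and -0.68 after removing the trend with transcript length. The one that turned was Mlx at 120 min, 0.0092 after removing that trend in place of -0.05. The cause was not tested. Myc at 120 min was 4.50 to 4.75 on the log2 scale under the alternatives run for it. The log2 change of the Myc to antagonist ratio was 5.12 to 5.24 with read counts not divided by length, the longest transcripts, the length trend removed or Mnt left out, and 0.48 with Mycn added to Myc. It is a ratio within each library, so the library scale does not enter it. List genes called at 120 min numbered 22, and 12 with total counts, 14 with total counts without Rn45s, 10 with Benjamini-Hochberg adjustment and 11 with a log2 limit of 1. Total counts shifted every log2 ratio at 120 min by -0.20, and the calls over all genes became 677 higher and 1250 lower in place of 1196 and 1049. Mxd4 kept its group in 12 of 16 settings, Mnt in 11 and the other 6 members in 16.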
